A study of Mus musculus with 8 samples.

Results

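The ligands of the Wnt, fibroblast growth factor (Fgf) and bone morphogenetic protein (Bmp) families are described here for the H3K27me3 mark and for the IgG background at their genes in mouse primordial germ cells. The members were the 48 autosomal Wnt, Fgf and Bmp ligand genes listed by symbol in the deposited gene tables, 19 Wnt, 20 Fgf and 9 Bmp genes among 20368 autosomal genes and 21352 listed genes. They were selected by family name, and the choice to describe these families was made with earlier results of these data known. In the E12.5 H3K27me3 library 31 of the 46 ligand genes with enough reads lay at least 2-fold above stage-matched IgG, 16 of 19 Wnt, 11 of 19 Fgf and 4 of 8 Bmp genes, against 14.9% of all autosomal genes tested.

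The study applied CUT&RUN, in which an antibody directs a nuclease to cut out and release the DNA around a chromatin mark, to small numbers of primordial germ cells. These embryonic precursors of egg and sperm were sorted by flow cytometry from embryos pooled by sex, so that a library stands for a pool of embryos and not for an animal. The analysed libraries were H3K27me3 at E12.5 (female), H3K27me3 at E11.5 (female), and IgG at E11.5 (male), at E12.5 (female) and at E13.5 (female), with 1 library in each group. All came from B6 x Cast embryos; the female libraries carried the genotype Xist KO/+:Oct4-eGFP+/- and the male IgG library Xist KO/Y:Oct4-eGFP+/-, so that a deleted Xist and the Oct4 reporter were present in the IgG controls as well. Of the 8 samples the series lists, 3 further H3K27me3 samples were not analysed here. No comparison below therefore has a replicate check. At E11.5 the mark and its IgG control also differ in sex, and the effects of antibody and sex on that comparison cannot be told apart.

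H3K27me3 is the histone mark written by Polycomb repressive complex PRC2, and it covers the genes of many developmental regulators in cells that keep them silent. Wnt ligands are secreted, lipid-modified proteins that bind Frizzled receptors. Fgf ligands act through receptor tyrosine kinases, and Bmp ligands, members of the TGF-beta superfamily, through serine/threonine kinase receptors. In the mouse embryo Bmp4 from extra-embryonic ectoderm, with Bmp8b and Bmp2, induces the germ cell lineage, and Wnt3 makes the epiblast competent to respond.

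The promoters below come from RefSeq (GRCm38.p6), which lists one for 36 of the 48 genes. They are the 250 bases before the transcription start, on the strand of the gene, with each CG dinucleotide in capitals. They belong to the Wnt and the Fgf gene with the highest and the lowest fold of H3K27me3 over IgG at E12.5, so that the base composition at either end of the range can be read directly. Wnt6 lies at chr1:74771642-74771891 (+ strand), Wnt2b at chr3:104961710-104961959 (- strand), Fgf21 at chr7:45615491-45615740 (- strand) and Fgf22 at chr10:79754859-79755108 (+ strand).
Wnt6: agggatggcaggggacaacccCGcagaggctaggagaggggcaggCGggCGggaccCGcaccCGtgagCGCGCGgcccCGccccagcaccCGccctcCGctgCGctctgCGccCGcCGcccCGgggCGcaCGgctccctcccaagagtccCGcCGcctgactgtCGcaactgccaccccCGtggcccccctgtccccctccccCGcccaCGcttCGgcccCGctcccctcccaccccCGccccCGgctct
Wnt2b: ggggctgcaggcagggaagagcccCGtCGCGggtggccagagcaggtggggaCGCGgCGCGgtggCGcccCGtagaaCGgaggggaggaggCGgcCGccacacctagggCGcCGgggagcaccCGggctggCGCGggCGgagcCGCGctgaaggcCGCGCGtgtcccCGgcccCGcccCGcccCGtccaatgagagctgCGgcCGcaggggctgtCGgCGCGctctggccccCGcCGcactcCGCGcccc
Fgf21: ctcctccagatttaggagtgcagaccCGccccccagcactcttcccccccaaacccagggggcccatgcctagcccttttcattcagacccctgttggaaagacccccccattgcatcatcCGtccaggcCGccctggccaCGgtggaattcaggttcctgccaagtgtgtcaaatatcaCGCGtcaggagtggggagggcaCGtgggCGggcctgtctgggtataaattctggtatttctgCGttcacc
Fgf22: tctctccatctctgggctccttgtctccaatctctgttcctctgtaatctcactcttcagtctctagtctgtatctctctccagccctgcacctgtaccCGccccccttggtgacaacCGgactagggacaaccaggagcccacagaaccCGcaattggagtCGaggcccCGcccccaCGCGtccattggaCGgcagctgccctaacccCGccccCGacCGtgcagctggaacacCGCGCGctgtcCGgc
In the window of 300 bases that runs 50 bases past the start, Wnt6 held 31 CG dinucleotides and Wnt2b held 43, while Fgf21 held 9 and Fgf22 held 18. In each pair the gene with the lower fold had the more CG-rich promoter. A CG was present at least once in 95.3% of the 15633 autosomal promoters of this length. Over the 36 matched ligand genes the median was 20.5 (range 3 to 58), against 15 over all of these promoters. Wnt promoters had the highest family median, 31 (15 genes), against 12 in the Fgf family (15 genes), while the 6 Bmp promoters held 3 to 27. Across the 34 ligand genes with both values, CG number and fold over IgG at E12.5 were nearly unrelated (Spearman's rho = -0.066, a description across genes that share the same libraries), whereas over 12985 autosomal genes rho was -0.407. Promoters of Wnt5a, Wnt7b, Wnt8a, Wnt10a, Fgf1, Fgf8, Fgf15, Fgf17, Fgf20, Bmp2, Bmp3 and Bmp7 are not shown.

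Each deposited table gives, for a gene, the reads assigned to the first and to the second allele of the cross, so that only reads that could be assigned to an allele are counted. Level means the sum of both in reads per 1000000 reads of chromosomes 1 to 19 (RPM), per kb of counted gene length where genes are compared. Autosomal reads numbered 5020062 in the H3K27me3 E12.5 library, 2356356 in H3K27me3 E11.5, and 1357583, 1515532 and 5705401 in IgG at E11.5, E12.5 and E13.5. The ligand genes took 0.547% and 0.605% of them in the E12.5 and E11.5 H3K27me3 libraries and 0.226% to 0.234% in the 3 IgG libraries. Reads were found in every library for 47 members. Fgf7 was listed at 0 in all 5, and Bmp6 had 34 reads in all over 155.196 kb, so that neither is described further. A gene was called higher or lower where its fold of levels was 2 or more and the exact 95% interval left out 1, with at least 20 reads in the pair. These intervals cover counting error only, and reads that are copies of 1 fragment would make them too narrow.

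**Figure D1:**
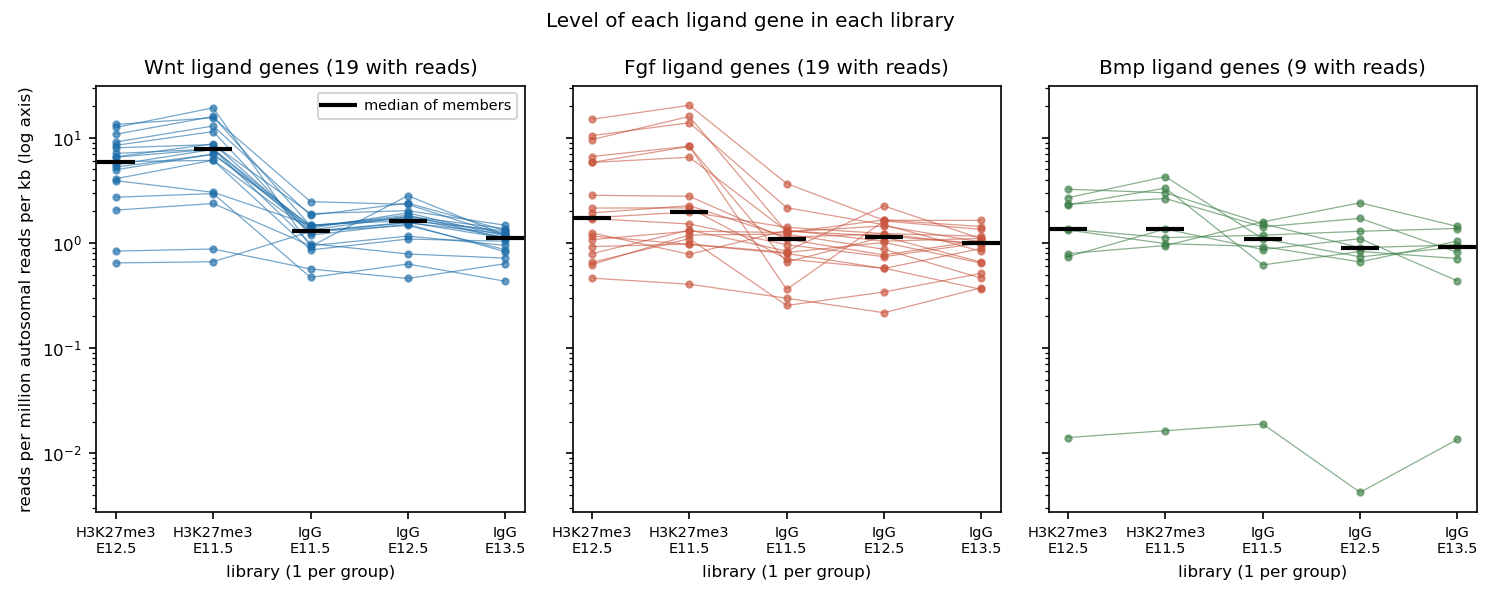
Level of each ligand gene in each library, in RPM per kb on a log axis, with a panel per family, a line per gene and a bar at the family median. The Wnt median was 5.94 and 7.77 in the H3K27me3 libraries at E12.5 and E11.5 and 1.12 to 1.63 in the 3 IgG libraries, while the Bmp medians lay between 0.902 and 1.36 in all 5. The lowest line in the Bmp panel is Bmp6.

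The plot of levels by library shows that the families parted in the H3K27me3 libraries. Wnt genes had a median level of 5.94 RPM per kb at E12.5 and 7.77 at E11.5, Fgf genes 1.74 and 1.97, and Bmp genes 1.35 and 1.36. In IgG the 3 family medians lay between 0.902 and 1.63. With Bmp6 left out, the spread in the H3K27me3 libraries was widest among Fgf genes. They held the highest member of all, Fgf21, as well as 8 genes that were not called in either direction or were lower at E12.5.

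At E12.5, 31 of 46 ligand genes were called higher in H3K27me3 than in IgG and 3 lower, against 14.9% higher and 31.8% lower among the 16526 autosomal genes tested. The median fold of the members was 2.80 and that of all tested genes 0.668. By family the median was 3.81 for Wnt genes (range 0.441 to 7.06), 2.13 for Fgf genes (0.352 to 9.13) and 1.68 for Bmp genes (0.329 to 3.65). At E11.5, 27 of 44 were called higher and 0 lower, against 17.2% and 31.0% of 15050 genes, with a members' median of 4.21 against 0.700. There the Wnt family had 17 of 19 called higher (median 6.15), the Fgf family 8 of 17 (1.99) and the Bmp family 2 of 8 (1.71). Called higher at both stages were 26 of the 44 genes tested at both, namely 16 Wnt, 8 Fgf and 2 Bmp genes, against 12.0% of 15025 autosomal genes. The folds of each comparison were also scaled so that the median tested autosomal gene has a fold of 1. Before scaling, the median log2 fold was -0.58 at E12.5 and -0.52 at E11.5. Scaled in this way, 36 members were higher and 1 lower at E12.5, and 34 and 0 at E11.5. The same scaling moved all tested genes to 25.8% higher and 5.82% lower at E12.5 and to 25% and 8.17% at E11.5.

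**Figure D2:**
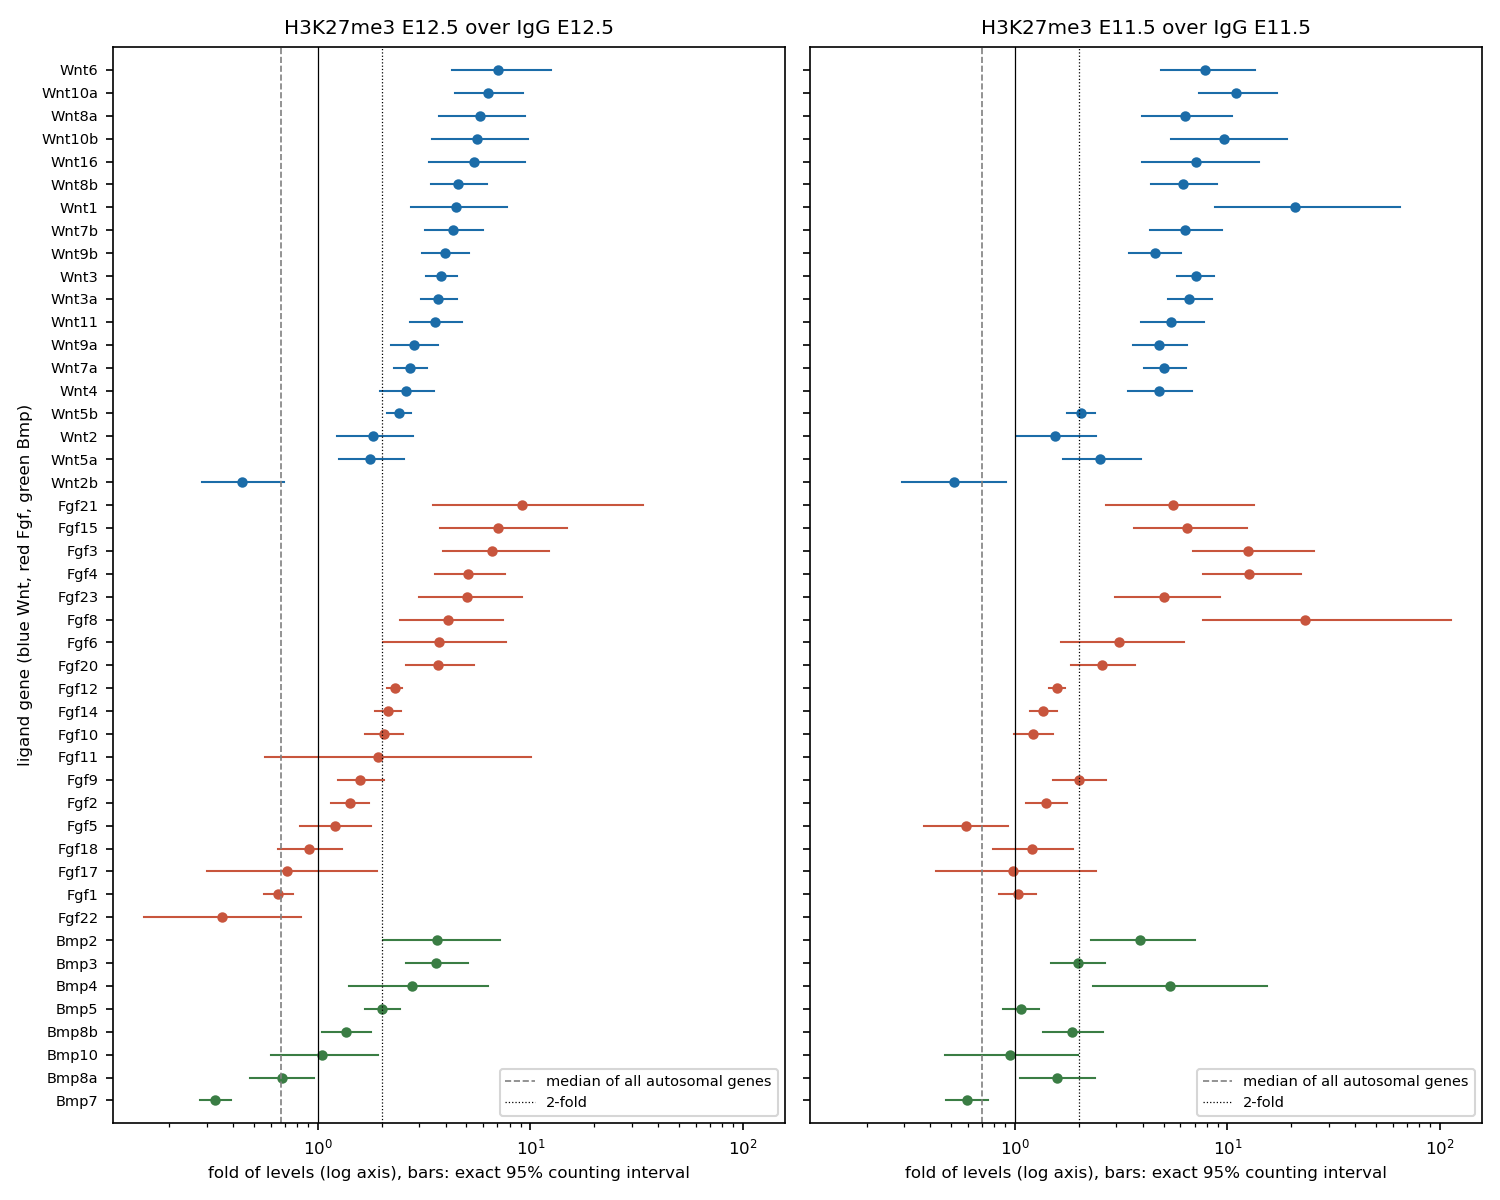
Fold of H3K27me3 over IgG for each ligand gene at E12.5 (left) and E11.5 (right) on log axes, with exact 95% counting intervals, ordered within families by the E12.5 fold. The dashed line is the median of all autosomal genes (0.668 and 0.700) and the dotted line the 2-fold threshold; all Wnt genes but Wnt2, Wnt5a and Wnt2b were called higher at E12.5, and the Fgf and Bmp genes run from above 2-fold to below 1.

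Within the Wnt family the highest folds at E12.5 belonged to a pair of neighbours on chromosome 1, Wnt6, a ligand of the ureteric bud and of epithelia, and Wnt10a, a ligand of tooth and hair development. Wnt6 had 5.55 and 7.77 RPM per kb in H3K27me3 at E12.5 and E11.5, against 0.987, 0.786 and 0.718 in IgG at E11.5, E12.5 and E13.5. Both mark libraries exceeded every IgG library, 7.06-fold at E12.5 (4.29 to 12.47) and 7.87-fold at E11.5 (4.88 to 13.51). Wnt10a had 10.8 and 16.0 in H3K27me3, against 1.45, 1.72 and 1.12 in IgG, a fold of 6.29 (4.44 to 9.22) at E12.5 and 11.0 (7.34 to 17.1) at E11.5.

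Wnt8a, an axis-patterning ligand of the early embryo, had 13.4 and 15.5 RPM per kb in H3K27me3 at E12.5 and E11.5, against 2.47, 2.32 and 1.18 in the IgG libraries in stage order. Wnt10b, which restrains fat cell formation, had 8.49 and 11.47, against 1.19, 1.51 and 0.825. For both genes the H3K27me3 levels lay clear of every IgG level, with folds of 5.76 (3.72 to 9.42) and 5.63 (3.46 to 9.79) at E12.5.

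Wnt1, the midbrain ligand next to Wnt10b on chromosome 15, and Wnt3 are given because 1 carries the largest Wnt fold at E11.5 and the other has a role in germ cell induction; both were picked after their values were seen. Wnt1 had 12.6 and 19.3 RPM per kb in H3K27me3 at E12.5 and E11.5, against 0.925, 2.82 and 1.19 in IgG. Its folds were 4.46 at E12.5 and 20.9 (8.77 to 65.0) at E11.5, the second over 5 IgG reads. It was the only member called between the IgG libraries at E12.5 and E11.5, where IgG E12.5 was 3.05-fold above IgG E11.5; against the deeper IgG E13.5 library its folds were 10.6 and 16.2 at E12.5 and E11.5. Wnt3 had 2006 and 1338 reads in H3K27me3 at E12.5 and E11.5 and levels of 9.12 and 13.0 per kb, against 1.83, 2.39 and 1.32 in IgG, which gave folds of 3.81 and 7.07. The RefSeq spans of Wnt3 and Wnt9b overlap by 1098 bases. Wnt9b was counted over 22.458 kb, less than its RefSeq span (chr11:103727362-103775272). Whether the counted stretches of Wnt3 and Wnt9b also overlap is not known.

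Wnt2b stood apart as the only Wnt gene called lower at E12.5. It encodes a canonical Wnt ligand of eye, lung and kidney development. It had 0.646 and 0.663 RPM per kb in H3K27me3 at E12.5 and E11.5, against 1.28, 1.47 and 0.863 in IgG, from 54 and 26 reads in H3K27me3. The fold was 0.441 (0.285 to 0.689) at E12.5 and 0.517 (0.292 to 0.909) at E11.5, but 0.748 when IgG E13.5 took the place of IgG E12.5, which ends the call. Wnt5a, the main ligand of non-canonical Wnt signalling, had 2.05 and 2.37 in H3K27me3, against 0.941, 1.16 and 0.950 in IgG. Its fold of 1.77 (1.26 to 2.54) at E12.5 lay under the threshold and that of 2.52 (1.67 to 3.92) at E11.5 above it; over IgG E13.5 its E12.5 fold was 2.16, which passes it. The remaining Wnt genes, among them Wnt4, a female gonad determinant (fold 2.60 at E12.5 and 4.74 at E11.5), had E12.5 folds between 1.82 (Wnt2) and 5.45 (Wnt16).

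Among Fgf genes the 3 endocrine ligands, which circulate and act with Klotho co-receptors, were called higher at both stages. Fgf21, a liver hormone of fasting metabolism, had 15.0 and 20.4 RPM per kb in H3K27me3 at E12.5 and E11.5, the highest levels of any member, against 3.67, 1.64 and 1.64 in IgG. Its fold of 9.13 at E12.5 rests on 121 H3K27me3 and 4 IgG reads and has a wide interval (3.48 to 34.1), and that at E11.5 was 5.55 (2.68 to 13.3). Fgf15, the gut hormone that represses bile acid synthesis, had 10.5 and 13.9 in H3K27me3, against 2.17, 1.49 and 0.832 in IgG, with folds of 7.03 (3.76 to 14.9) and 6.43 (3.64 to 12.4). Fgf23, the phosphate-regulating bone hormone, had folds of 5.01 and 5.03.

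Fgf3, an inner ear ligand, and Fgf4, a ligand of the inner cell mass and limb bud, lie beside Fgf15 on chromosome 7. Fgf3 had 9.62 and 16.0 RPM per kb in H3K27me3 at E12.5 and E11.5, against 1.28, 1.45 and 1.02 in IgG. Fgf4 had 5.84 and 8.28, against 0.659, 1.14 and 0.657. Both genes were thus several times higher in the mark than in any IgG library, and more so at E11.5: the folds at E12.5 and E11.5 were 6.62 (3.89 to 12.3) and 12.52 (6.87 to 25.4) for Fgf3 and 5.10 (3.55 to 7.59) and 12.6 (7.63 to 22.2) for Fgf4. Of the ligands with a place in germ cell biology, Fgf9, which promotes the male pathway in the gonad, was not called over stage-matched IgG (fold 1.58 at E12.5 and 1.99 at E11.5) but was called higher at both stages over IgG E13.5 (2.02 and 2.37). Fgf2, a mitogen of cultured germ cells, was not called (1.41 and 1.40). Fgf8, a ligand of gastrulation and limb growth, had the largest fold of any member at E11.5, 23.0 (7.70 to 113), over only 3 IgG reads; against IgG E13.5 it was 6.18. These 3 genes were picked after their values were seen.

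Fgf22, a synaptic organizer, was the Fgf gene called lower. It had 0.792 and 1.33 RPM per kb in H3K27me3 at E12.5 and E11.5, against 0.837, 2.25 and 1.10 in IgG, from 14 and 11 reads in H3K27me3. The E12.5 mark level lay below all 3 IgG levels and the E11.5 one between them. The fold at E12.5 was 0.352 (0.151 to 0.834) and, over IgG E13.5, 0.723, which ends the call. Fgf1, which acts through all Fgf receptors, had 1.08 and 1.29 in H3K27me3, against 1.26, 1.66 and 1.43 in IgG. Its E12.5 fold was 0.650 (0.555 to 0.764) and its E11.5 fold 1.03.

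Fgf12 and Fgf14 encode intracellular Fgf homologous factors that bind sodium channels and are not secreted, and Fgf10 is the mesenchymal ligand of lung and limb budding. These long genes were called higher at E12.5, with folds of 2.30, 2.13 and 2.04, and not at E11.5, with 1.58, 1.36 and 1.22. Against IgG E13.5 their E12.5 folds were 1.70, 1.23 and 1.31, which ends the 3 calls. For Fgf12 the levels were 1.70 and 1.52 RPM per kb in H3K27me3 at E12.5 and E11.5, against 0.963, 0.741 and 1.002 in IgG, so that the IgG E12.5 library was the lowest of the 5. The same was true of Bmp5, a skeletal ligand.

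The Bmp family, the smallest, had the fewest calls: 50% of its tested genes were called higher at E12.5, against 57.9% of Fgf genes. At E11.5 the shares were 25% and 47.1%, but over IgG E13.5 they were 62.5% and 52.6%. Bmp2, a ligand of heart and bone formation, had 2.69 and 4.27 RPM per kb in H3K27me3 at E12.5 and E11.5, against 1.10, 0.738 and 0.915 in IgG. Bmp4 had 2.31 and 3.32, against 0.618, 0.831 and 0.711. Both were called higher at both stages, Bmp2 with folds of 3.65 (2.03 to 7.22) and 3.89 (2.29 to 7.05), and Bmp4 with 2.78 (1.40 to 6.30) and 5.38 (2.32 to 15.3). Bmp3, which antagonizes bone formation, had 3.24 and 3.001 in H3K27me3, against 1.52, 0.902 and 0.959 in IgG, and its fold was 3.59 (2.61 to 5.07) at E12.5 and 1.97 (1.48 to 2.66) at E11.5, where IgG E13.5 as control gave 3.13 and a call. Bmp5 had 1.33 and 0.985 in H3K27me3, against 0.926, 0.660 and 1.04 in IgG, with folds of 2.01 (1.66 to 2.44) and 1.06 (0.873 to 1.30). Over IgG E13.5 its E12.5 fold was 1.27, which ends the call.

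Bmp7, a ligand of kidney and eye development, had the lowest fold of all members at E12.5. It had 0.793 and 0.945 RPM per kb in H3K27me3 at E12.5 and E11.5, against 1.59, 2.41 and 1.43 in IgG, so that both mark libraries lay below every IgG library. The fold was 0.329 (0.278 to 0.391) at E12.5 and 0.595 (0.474 to 0.746) at E11.5, and 0.553 at E12.5 over IgG E13.5, which ends the call. Bmp8a had 0.742 and 1.36, against 0.866, 1.10 and 0.435, with folds of 0.675 (0.481 to 0.958) and 1.57. Bmp8a and its near-identical neighbour Bmp8b, which takes part in germ cell induction (folds of 1.36 and 1.86), could have exchanged reads in the counting, and both are uncertain. Over IgG E13.5 Bmp8b was called higher at both stages, with 2.86 and 3.25, and Bmp8a at E11.5, with 3.12.

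Between the stages no ligand gene passed the threshold. Of 46 members 0 were called higher and 0 lower in H3K27me3 at E12.5 than at E11.5, where 0.829% of 16526 autosomal genes were called higher and 0.968% lower. Most lay slightly lower at E12.5, 37 of the 46, with a median fold of 0.846 against 1.01 over all tested genes; 18 of 19 Wnt genes (median 0.838), 14 of 19 Fgf genes (0.853) and 5 of 8 Bmp genes (0.860) lay below 1. With no threshold on the fold, a rule added after seeing the data, the counting interval left out 1 for 18 members below and 6 above, against 10.4% and 7.91% of all tested genes. The 18 were Wnt1, Wnt3, Wnt3a, Wnt4, Wnt6, Wnt7a, Wnt9a, Wnt10a, Wnt10b and Wnt11, Fgf1, Fgf3, Fgf4, Fgf15 and Fgf21, and Bmp2, Bmp4 and Bmp8a. The smallest of their folds was 0.546 (Bmp8a, 0.413 to 0.723) and next came Fgf3 at 0.603 and Bmp2 at 0.630. The 6 above were Wnt5b, Fgf5, Fgf10, Fgf12, Fgf14 and Bmp5, led by Fgf5, a hair cycle ligand, at 1.60 (1.13 to 2.31). The counted lengths of Fgf10, Fgf12, Fgf14, Bmp5 and Wnt5b are each over 100 kb. The RefSeq span of Fgf10 (chr13:118714699-118792573) is shorter than that.

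The IgG libraries give the size of the difference between libraries without the mark. Of 40 ligand genes tested, 1 was called higher in IgG E12.5 than in IgG E11.5 (Wnt1) and 0 lower, against 2.20% and 1.35% of all genes, with a median fold of 1.14 against 1.06. By family 16 of 19 Wnt genes lay above 1 (median 1.22), 5 of 14 Fgf genes (0.847) and 4 of 7 Bmp genes (1.09). These IgG libraries also differ in sex. The lower Wnt fold over IgG at E12.5 than at E11.5 thus goes with a higher IgG level as well. In IgG E13.5 over IgG E12.5, 0 of 45 were called higher and 3 lower (Wnt1, Bmp8a and Bmp8b), against 3.09% and 6.68%, with a median of 0.763 against 0.915. There 18 of 19 Wnt genes lay below 1 (median 0.707), so that the Wnt genes took a smaller part of the reads in the deepest IgG library. Taking IgG E13.5 as the control left 30 of 47 members higher at E12.5 (17 Wnt, 9 Fgf, 4 Bmp), against 16.8% of all genes higher and 27.5% lower, and 32 of 46 at E11.5 (17 Wnt, 10 Fgf, 5 Bmp), against 17.5%. At E11.5 over IgG E13.5, 28.9% of all genes were called lower, and 0 members were called lower at either stage. The median folds over IgG E13.5 were 5.72 for Wnt, 1.70 for Fgf and 1.70 for Bmp genes at E12.5, and 6.41, 2.37 and 3.13 at E11.5, so that the order of the Fgf and Bmp families at E11.5 was turned round. Calls of higher gained with this control were Wnt5a (2.16), Fgf9 (2.02) and Bmp8b (2.86) at E12.5, and Fgf9 (2.37), Fgf17 (2.57), Bmp3 (3.13), Bmp8a (3.12) and Bmp8b (3.25) at E11.5.

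**Figure D3:**
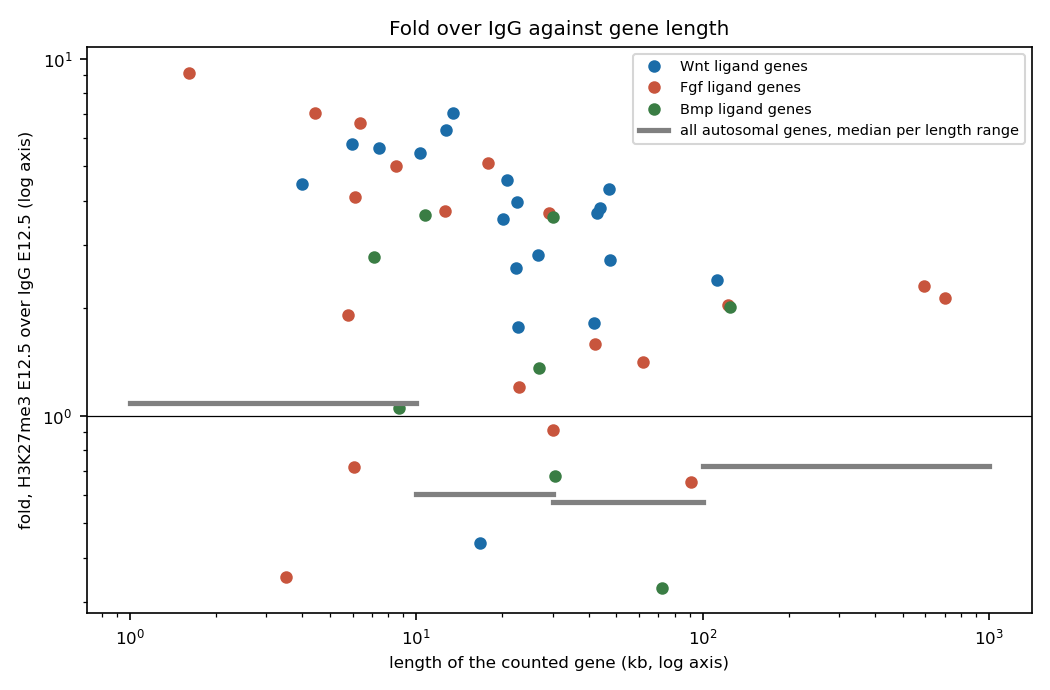
Fold of H3K27me3 over IgG at E12.5 against counted gene length, both on log axes, with a point per ligand gene and a grey bar for the median of all autosomal genes in each length range. Ligand genes under 10 kb had a median fold of 4.46 against 1.09 for all genes of that length, and those of 30 to 100 kb 1.70 against 0.572.

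Gene length moved with the fold, as the plot of fold against length shows. Across the 46 ligand genes Spearman's rho between length and fold at E12.5 was -0.413 (-0.584 in Wnt, -0.291 in Fgf and -0.381 in Bmp genes), against -0.138 over all 16526 genes, and at E11.5 it was -0.505 in 44 members. For the fold of H3K27me3 at E12.5 over E11.5 it was 0.512 in 46 members and 0.733 within the Fgf genes, against 0.143 over all genes. In IgG E13.5 over IgG E12.5, without the mark, it was 0.354 in 45 members and 0.261 over all genes, and in IgG E12.5 over IgG E11.5 it was -0.034 in 40 members and -0.279 over all genes. These correlations share libraries and are descriptions across genes. In length ranges set after seeing the data, the members' median at E12.5 stood above that of all genes in each: 4.46 under 10 kb (9 of 13 called higher, against 26.2% of all genes of that length), 3.62 from 10 to 30 kb (13 of 18, against 14.3%), 1.70 from 30 to 100 kb (4 of 10, against 8.94%) and 2.13 over 100 kb (5 of 5, against 7.98%). Over IgG E13.5 only 1 of 6 members over 100 kb, Wnt5b, was called higher at E12.5. Within length ranges the family medians at E12.5 were 5.63 for 3 Wnt, 4.56 for 8 Fgf and 1.92 for 2 Bmp genes under 10 kb. From 10 to 30 kb they were 3.76 for 10 Wnt, 3.69 for 5 Fgf and 3.59 for 3 Bmp genes, and from 30 to 100 kb 3.69 for 5 Wnt, 1.41 for 3 Fgf and 0.502 for 2 Bmp genes. The closeness from 10 to 30 kb was seen only over IgG E12.5: over IgG E13.5 the same genes at E12.5 had 5.58, 2.69 and 2.94, and at E11.5 over IgG E11.5 they had 5.11, 2.56 and 1.97. The length ranges, the correlations and the levels per kb rest on the deposited counted lengths, which differ from the RefSeq spans for some members. Fgf20 was counted at 29.166 kb (RefSeq chr8:40279166-40286953) and Fgf4 at 17.877 kb (chr7:144861386-144865245), both longer than the span. Wnt6, at 13.431 kb (chr1:74754342-74785322), was shorter. The part of gene length in the order of the families was not tested.

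Several ligand genes lie side by side in the genome and share their surroundings. In the RefSeq annotation 15 members have another member within 300 kb: Wnt6 and Wnt10a (6.70 kb apart on chromosome 1), Wnt1 and Wnt10b (11.7 kb, chromosome 15), Wnt3a and Wnt9a (16.1 kb, chromosome 11), Wnt3 and Wnt9b (chromosome 11), Fgf3, Fgf4 and Fgf15 (18.04 and 31.3 kb, chromosome 7), Fgf6 and Fgf23 (48.2 kb, chromosome 6) and Bmp8a and Bmp8b (187 kb, chromosome 4). All of them but the Bmp8 pair, 13 of 15, were called higher at E12.5, against 14.9% of all genes, with a median fold of 4.46. Of the 31 ligand genes with no such neighbour 18 were called, with a median of 2.13. Neighbouring genes are not independent observations.

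Other genes of the 3 pathways are read against all autosomal genes at E12.5, of which 14.9% were higher and 31.8% lower, with a median fold of 0.668. The receptor genes lay near that background. At E12.5, 1 of 11 tested Wnt receptor genes was called higher and 4 lower (median fold 0.580), with Fzd4 at 2.38 (1.45 to 4.13), Fzd1 at 3.62 from 24 H3K27me3 and 2 IgG reads and not called, and Fzd8 lowest at 0.221. Of 7 Fgf receptor and co-receptor genes 1 was higher and 2 lower (0.954), Fgfr4 being highest at 4.13 (3.11 to 5.60), then Klb at 1.29, and Fgfr1 lowest at 0.405. The median of 0.954 is the value of Fgfr2, which was counted over 2960.9 kb and may not stand for the receptor gene alone. Of 6 Bmp receptor genes 0 were higher and 2 lower (0.545), from Bmpr1b at 1.03 and Bmpr1a at 0.587 to Acvr2b at 0.453.

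Of the secreted antagonists, which bind ligands or co-receptors outside the cell, 8 of 18 were higher and 1 lower at E12.5 (median 1.55), against 14.9% and 31.8% of all genes, and 10 of 18 higher at E11.5 (2.20), against 17.2%. Fst, which binds activins and Bmps, reached 11.0 (4.96 to 30.2) and Sost, a Wnt co-receptor antagonist, 5.43 (3.24 to 9.84), and Fstl1 was lowest at 0.387. Of 24 intracellular transducers 1 was higher and 13 lower (0.486), Tcf7l2, a transcription factor that works with beta-catenin, being highest at 2.93 (2.66 to 3.24), then Smad9 at 1.63, and Frs3 lowest at 0.263. Of 4 feedback inhibitors of the Spry and Dusp type 0 were higher and 3 lower (0.370), with Spred1 at 0.598, Spry4 at 0.377 and Spry2 at 0.302. Of the genes for Wnt release and removal Wls was higher at 2.04 and Notum was not called at 0.604.

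The labelled cell type could be checked only through the mark, since no transcripts were measured. Genes that mark germ cells had 0 of 9 called higher and 6 lower at E12.5 (median 0.486), against 14.9% and 31.8% of all genes (0.668). With IgG E13.5 as control 0 of 10 were higher and 3 lower (0.531), against 16.8% and 27.5% of all genes (0.726). The excess of lower calls was thus seen only over IgG E12.5. Genes that mark the gonadal soma, a neighbour of germ cells in the sorted tissue, were all called higher, 7 of 7 tested (median 4.42, range 2.41 to 8.80), and 7 of 7 at E11.5 (5.79). Amh, with 11 H3K27me3 and 5 IgG reads at E12.5, was not tested. With IgG E13.5 as control 7 of 8 were higher at E12.5, and the lowest fold was 0.962. The 7 are developmental regulators, a class that the mark often covers, so these calls cannot decide the cell type. For blood and endothelium 2 of 7 were higher and 1 lower (0.937). How much of the ligands' mark came from other cells in the sort was not tested.

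The second allele's share of reads was examined in the genes with at least 10 allelic reads. Which strain is the second allele is not given in the sources used here. The members' median share was 49.2% in H3K27me3 E12.5 (47 genes, 37.3% to 68.4%) and 50% in H3K27me3 E11.5 (46 genes, 28.6% to 60.0%). Over all autosomal genes the medians were 50% and 50.8%, and the shares of the pooled reads 50.9% and 51.6%. By an exact two-sided binomial test against the pooled share, adjusted over all autosomal genes, 9 members departed at E12.5, 4 of them with more reads of the second allele and 5 with more of the first, where 9.48% and 7.98% of all genes did. At E11.5 there were 8, 2 toward the second and 6 toward the first, against 6.69% and 4.98%. Most of these departures were small: none of the 47 at E12.5 and only Bmp4 at E11.5 lay 20 points or more from 50%, against 8.22% and 9.72% of all genes. A gene with few reads reaches such a distance more easily by counting error. The median autosomal gene had 67 reads at E12.5 and 32 at E11.5, and many members had more. The part of depth in this difference was not tested. In IgG the same binomial test called 0 of 40 members at E11.5 (2 at an unadjusted p under 0.05), 1 of 42 at E12.5 and 2 of 47 at E13.5. The members had 3179, 3512 and 12873 reads in these libraries, against 14251 and 27454 in H3K27me3 at E11.5 and E12.5. Small departures were therefore harder to call in IgG, above all at E11.5 and E12.5. Of all genes it called 3.21% toward the second and 0.456% toward the first allele in IgG E11.5, 3.19% and 0.280% in IgG E12.5, and 5.84% and 2.03% in IgG E13.5. Members at 20 points or more from 50% numbered 2, 4 and 1 in IgG at E11.5, E12.5 and E13.5, against 8.48%, 7.58% and 6.05% of all genes.

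**Figure D4:**
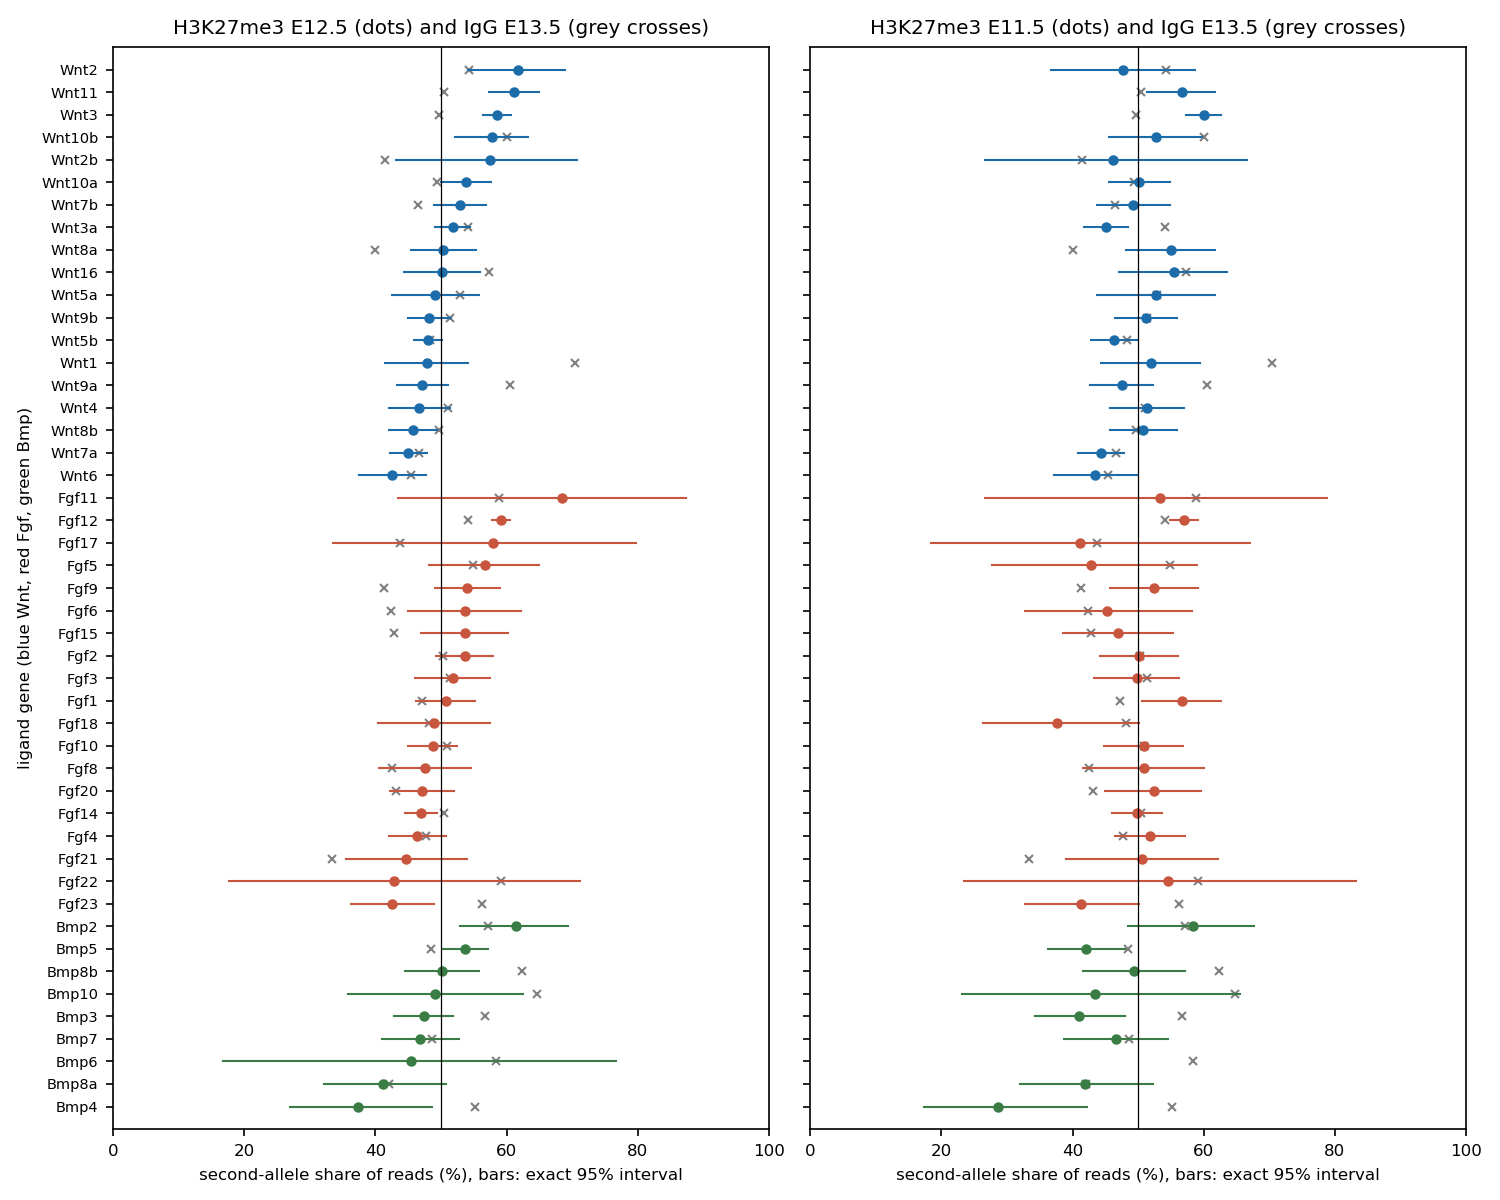
Second-allele share of reads (%) of each ligand gene in H3K27me3 E12.5 (left) and E11.5 (right), dots with exact 95% intervals, beside the share in IgG E13.5 (crosses), ordered within families by the E12.5 share; the line marks 50%. Wnt3 and Fgf12 lie above 50% in both H3K27me3 panels with narrow intervals, Bmp4 at E11.5 is the lowest dot at 28.6%, and the crosses run from 33.3% to 70.4%.

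Wnt3 and Fgf12 departed toward the second allele in both H3K27me3 libraries. Wnt3 had 58.5% (56.3% to 60.7%, adjusted p = 2.75e-10) at E12.5 and 60.0% (57.3% to 62.7%, adjusted p = 2.73e-08) at E11.5 by the exact binomial test, against 42.2%, 57.9% and 49.7% in IgG at E11.5, E12.5 and E13.5. Its IgG shares thus ran on both sides of 50%, and the one at E12.5 was close to that of the mark. Fgf12 had 59.1% (57.7% to 60.5%) and 57.1% in H3K27me3, and it departed also in IgG, with 58.4% at E12.5 and 54.1% at E13.5. Since Fgf12 gave 5074 of the 11377 Fgf reads at E12.5, the pooled Fgf share of 53.6% there rests largely on it.

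Wnt11, a non-canonical ligand of kidney branching, had 61.2% (57.3% to 64.9%) at E12.5 and 56.6% at E11.5, against 48.7%, 50% and 50.4% in IgG. Wnt2 had 61.7% (54.1% to 68.9%) at E12.5 and 47.7% at E11.5, against 59.4%, 44.8% and 54.3% in IgG. Wnt5b and Wnt7a departed toward the first allele in both mark libraries, Wnt5b with 48.0% and 46.3% and Wnt7a with 45.0% and 44.4% at E12.5 and E11.5. Their shares in IgG at E11.5, E12.5 and E13.5 were 47.1%, 50.4% and 48.3% for Wnt5b and 51.7%, 46.8% and 46.6% for Wnt7a. Neither gene was called between the mark and any IgG library tested by Fisher's exact test. Bmp4 had 28.6% (17.3% to 42.2%) at E11.5 from 56 reads (exact binomial adjusted p = 0.00846) and the lowest share at E12.5, 37.3%, against 33.3%, 33.3% and 55.2% in IgG, of which the first and second rest on 6 and 9 reads.

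Set against each other by Fisher's exact test, adjusted over all autosomal genes, the shares of H3K27me3 E12.5 and E11.5 differed in 0 of 46 members, with 3 at an unadjusted p under 0.05, against 0.150% of all genes higher and 0.379% lower. The smallest adjusted p among them was 0.0985, for Bmp5, with 53.7% at E12.5 and 42.1% at E11.5. Against IgG of the same stage the test called 0 of 42 members at E12.5, with 2 unadjusted, against 1.04% of all genes higher and 1.31% lower. At E11.5 it called 1 of 40, Wnt3 (60.0% in H3K27me3 and 42.2% in IgG, adjusted p = 0.0227 by Fisher's exact test), with 4 unadjusted, against 1.32% and 0.853%. Against the deeper IgG E13.5 it called 3 of 47 at E12.5: Wnt9a (47.1% in H3K27me3, 60.5% in IgG), Fgf9 (54.0% and 41.3%) and Fgf12 (59.1% and 54.1%), where 2.81% of all genes were higher and 3.31% lower. At E11.5 it called Wnt3 against IgG E13.5 (60.0% in H3K27me3 and 49.7% in IgG), where 2.29% of all genes were higher and 1.84% lower. These tests compare reads of single libraries and not the conditions.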

How the data were processed

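CUT&RUN libraries for H3K27me3 and IgG from mouse primordial germ cells were analysed from allele-resolved gene tables, 1 per library. The authors' deposited counts are whole reads per gene assigned to the first and to the second allele. The same tables hold a deposited fraction, the second allele's share, and a counted gene length in bases. The submitters' processing notes name Bowtie2 2.4.2 and featureCounts, the trimmers Trim Galore 0.6.6 and cutadapt 4.1, deepTools 3.5.1, GATK, SAMtools 1.11, MACS2 2.2.7.1, quality reports by MultiQC 1.13 and FastQC 0.11.9, and the mm10 build. Not given in the sources used here are their order, whether duplicates were removed, and how a read was assigned to an allele. Duplicates kept in the counts would narrow every interval, and genes with few strain differences have low counts.

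From the counts, levels were the sum of both alleles per 1000000 reads of chromosomes 1 to 19. Folds of levels have exact 95% binomial intervals (scipy 1.17.1, Python 3.11.15). A gene was tested with at least 20 reads in the pair and called at 2-fold or more where the interval left out 1. A library at 0 reads was set to 3 counts. With 1 library in each group no p-value was computed for a level. Allele shares needed 10 reads. They were tested with the exact two-sided binomial test against the share of all autosomal reads in that library and with Fisher's exact test between libraries, with Benjamini-Hochberg adjustment over all autosomal genes at 0.05. The procedure was tested on simulated data.

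The members, the other gene lists and the tests were chosen with earlier results of these data known. Genes described singly were, in each family, the 4 highest and 2 lowest folds at E12.5, members called between the H3K27me3 libraries or for share by both criteria, and in each other list the 2 highest and the lowest. Other genes named were picked after their values were seen. Length ranges and alternatives marked as added were chosen after seeing the data. Sequences and gene positions are from RefSeq (GRCm38.p6).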

Additional observations from a re-analysis of the deposited data

How the results depend on the processing

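Depth is a limit of the tests: the median autosomal gene had 67 reads in H3K27me3 E12.5, 32 in H3K27me3 E11.5, and 23, 28 and 91 in the IgG libraries in stage order. No paired analysis was possible because each group has 1 library, and no replicate could be left out. The count of members higher at E12.5 (31) ran from 22 at a 3-fold threshold (8.12% of all genes) to 36 with centring on the median gene, and that at E11.5 (27) from 24 to 34. Members called lower at E12.5 (3) numbered 1 with centring (5.82% of all genes lower) and 1 at 3-fold (6.28%). They numbered 1 with the 3 IgG libraries summed (29.8%) and 0 with IgG E13.5 (27.5%). At E11.5 (0) they numbered 3 at 1.5-fold (41% of all genes lower). With IgG E12.5 as control, an alternative added after seeing the data, they numbered 2 (33.2%). The Wnt median fold at E12.5 (3.81) was 5.70 with centring and 5.72 with IgG E13.5, and that at E11.5 (6.15) was 8.78 with centring. Between the H3K27me3 stages (0 and 0) a 1.5-fold threshold gave 1 higher and 4 lower (2.09% and 3.90% of all genes), and the interval alone, also added, 6 and 18 (7.91% and 10.4%). For allele shares, a null of 50% gave 5 binomial calls at E11.5, against 8. A distance of 10 points from 50% gave 5 members at E12.5 (0 at 20 points) and 3 at E11.5 (1 at 20 points). The shares of all genes at a null of 50% and at 10 points are not given here. Those counts therefore cannot be set against the background. With IgG E13.5 as control, Fisher's exact test called 3 members at E12.5 in place of 0, against 2.81% of all genes higher and 3.31% lower. In the other 100 alternative values computed, counts stayed within 1.5 times of the reported count. Family medians stayed within bounds drawn from the folds of that family's genes, 2.60 to 5.45 for Wnt at E12.5. These bounds are wide for the Bmp genes, 0.595 to 5.38 at E11.5 (median 1.71, and 3.13 with IgG E13.5).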
